A study of Mus musculus with 8 samples.

Results

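The 4 arrays described here hold RNA from leukemic spleen cells of mice that carried the full-length leukemia fusion CBFb-SMMHC, out of 8 arrays in the study. All arrays whose genotype label reads CBFb-SMMHC chimera were taken. The labels give 2 animals, both sampled, at an age not given in the sources used here, 2 months after treatment with ENU (a chemical mutagen that adds mutations to those the mice already carry), and hybridised as 1 array of animal 1 and 3 arrays of animal 2. Below, array A is that of animal 1, and arrays B, C and D are the replicates numbered 1, 2 and 3 of animal 2. The sample labels call the animals chimeras, in which some cells descend from the engineered stem cells and others from the host embryo, whereas the series text calls them knock-in mice. The share of cells with the fusion is therefore not known here, nor is whether the 3 arrays of animal 2 were separate extractions. The other 4 arrays came from mice with a truncated fusion and are not analysed here. RNA was taken from the whole isolated cell preparation, so fewer cells of a type and less RNA per cell cannot be told apart.

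Core-binding factor is a pair of proteins, a RUNX protein that binds DNA and CBFb, which strengthens that binding. In the hematopoietic system RUNX1 and CBFb are needed for blood stem cells to form and for megakaryocytes, granulocytes and lymphocytes to mature. The inversion of chromosome 16 found in a class of acute myeloid leukemia fuses CBFb with part of the smooth muscle myosin heavy chain SMMHC, and the resulting protein binds RUNX1 and interferes with its target genes. The mouse spleen also makes red cells, granulocytes and megakaryocytes, the more so under stress, and normally holds many B cells, T cells and macrophages.

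Values are log2 signals, so a difference of 1 is a 2-fold difference, and a gene is represented by its brightest probe set. A total of 18193 genes were measured. A gene was called above background where its mean over the 4 arrays exceeded 5.11, the 95th percentile of 77 chemosensory receptor genes (receptors for odors, pheromones and tastes), and 10077 genes (55.4%) did. Signal depends on the probes as well as on the amount of RNA, so ranks between genes describe array signal only. Where 4 values are listed, they are in the order of arrays A, B, C and D. For arrays, their number limits the precision, and the 4 arrays here represent 2 animals.

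The arrays did not pair by animal. Array B, although from animal 2, resembled array A of animal 1, with a Pearson correlation across all genes of 0.991. Among genes above background their median absolute difference was 0.24, and 0 genes were 2 or more log2 units apart. Arrays C and D were closer still, at 0.998 and 0.077, with 0 genes even 1 log2 unit apart. The other 4 pairings had correlations of 0.941 to 0.946, and 478 to 514 genes differed by at least 2 log2 units. Genes are not independent replicates, and these correlations are descriptions. Control measures separated the arrays differently. For 18S ribosomal RNA array A read 8.08, against 5.03, 4.78 and 4.67 on the others, and for the poly-A spike-ins, RNA added before labeling, it read 8.14 against 7.0, 6.89 and 6.94. The Y-linked Eif2s3y read between 8.71 and 8.82 on all arrays, while Xist, the X inactivation transcript, read 6.42, 6.06, 4.97 and 5.09 and the Y-linked Kdm5d 2.17, 2.23, 6.22 and 6.28. Kdm5d was not above background by its mean, its other probe sets stayed below background, and the Y-linked Uty lay between 6.09 and 6.45. Because array B goes against its animal label in expression, results below are given by array or as the span over the 4 arrays, with no mean for an animal.

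**Figure D1:**
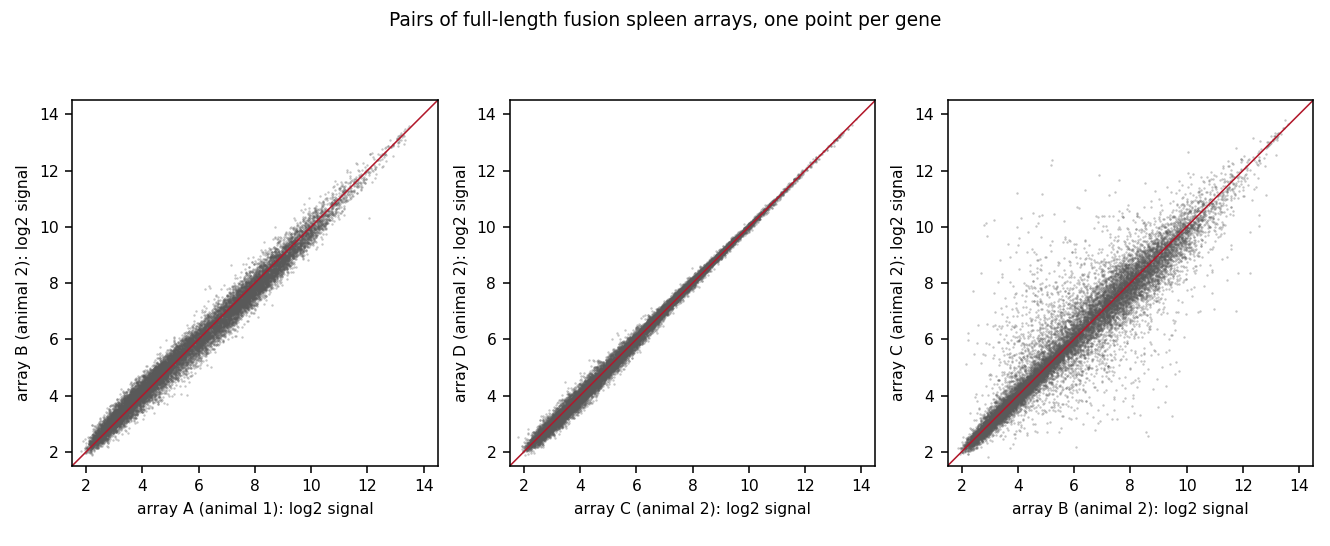
Log2 signal of every gene on 1 array against another, for 3 of the 6 pairs of arrays, with the line of equality. The points of the left and middle panels hug the line (correlations 0.991 and 0.998), while those of the right panel, 2 arrays labelled as the same animal, spread widely (0.946).

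The brightest signals came from genes that all cells use, and these were nearly the same on every array. Actb, the cytoskeletal actin, ranked first at 13.44, 13.50, 13.81 and 13.82. Tpt1, a growth-related protein translated in most tissues, followed at 13.48 to 13.65, and Eef1a1, the elongation factor that brings tRNA to the ribosome, was the fourth. Of the 25 brightest genes, 21 encode ribosomal proteins, led by Rps29 at 13.33 to 13.51, and the remaining one is the ferritin heavy chain Fth1 at 13.08 to 13.21. Blood cell genes came just below. Serglycin (Srgn), the proteoglycan that packs granule proteases, ranked 33 with 12.45, 12.37, 13.15 and 13.15. Carbonic anhydrase 2 (Car2), abundant in red cells, ranked 43 with 12.62, 12.80, 12.17 and 12.26. Chil3, a chitinase-like protein of developing neutrophils and macrophages, ranked 55 with 11.88, 11.76, 12.78 and 12.71. Of the 100 brightest genes on each array, 86 were shared by arrays A and B, and 95 by arrays C and D, against 72 to 74 in the other pairings.

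Among 444 measured transcription factors and related DNA-binding proteins, 297 lay above background. The brightest were the cold-shock proteins Ybx1 (11.73 to 12.30) and Ybx3 (11.64 to 12.17) and the chromatin protein Hmgb2 (11.28 to 11.93), and its relative Hmgb3 (9.91 to 11.15) was also among the 20 brightest. So were early-response factors of growth factor signaling, with Fos between 10.04 and 11.40, Jund between 10.65 and 10.79, Egr1 between 10.26 and 10.84 and Jun at 9.19, 9.28, 11.41 and 11.43. Several hematopoietic factors that act in one complex in early and erythroid cells were among the 20 brightest, while Gata1, another member, lay just outside them. Lmo2, the bridging protein of that complex, lay between 10.33 and 10.95. Tal1, its helix-loop-helix member, lay between 9.96 and 10.59. Gata2, the GATA factor of stem, mast and early megakaryocytic cells, read 9.94, 11.01, 9.99 and 10.07, so that array B stood above the other 3. Its other probe set (9.79, 10.29, 9.30 and 9.38) also had array B highest, but nearer to array A. Nfe2, a factor of platelet and globin genes, lay between 10.04 and 10.94, and Myb, needed for immature blood cells, between 9.49 and 10.30. Xbp1, the secretory stress factor, lay between 9.66 and 10.80 and Atf4, the amino acid stress factor, between 9.94 and 10.40. Cbfb itself ranked twentieth among factors.

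Of the 297 factors above background, 25 varied by at least 4-fold (2 log2 units) over the 4 arrays, against 595 of all 10077 genes above background (5.9%). Of the 25, 16 were highest on arrays C and D, and 9 on arrays A and B. Over all 595 varying genes these counts were 348 and 247. Some of the 25, such as Fli1, Mitf and Hlf, passed the background level only through arrays C and D. Fli1, an ETS factor of megakaryocytes and stem cells, had the widest range, at 3.67, 3.66, 9.40 and 9.43. Its first pair of values lay below background. Mitf, the factor that drives mast cell and melanocyte genes, read 3.81, 3.45, 8.32 and 8.29. Bhlhe40, a repressor of the circadian clock and of immune cells, was chosen here after its values were seen, and read 5.88, 5.67, 9.63 and 9.67. In the opposite direction, Klf1, the master activator of red cell genes, read 11.82, 11.43, 8.92 and 8.99. For Hlf, a factor of stem cells, the values were 4.29, 4.54, 7.65 and 7.66. In each of these the lower pair and the upper pair of arrays did not overlap. The same held for all 595 varying genes, so it is not particular to these factors.

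At the other extreme, 52 of the 297 factors were steady, with a range of at most 0.3, against 1925 of all 10077 genes above background (19.1%). Ikzf1, the lymphoid and myeloid zinc finger factor Ikaros, spanned only 10.09 to 10.15. Myc, the growth regulator, spanned 9.38 to 9.45 and Klf9 9.25 to 9.32. Yy1 (9.82 to 9.95), Tfdp1, the partner of E2F (range 0.15), and Jund, already described, were steady and among the 20 brightest. These ranges are those of the brightest probe sets. Other probe sets ranged over as much as 1.64 for Yy1, 1.04 for Klf9, 0.79 for Ikzf1 and 0.37 for Jund.

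The surface list held 412 measured genes, of which 248 lay above background. Cd47, the signal that keeps macrophages from engulfing a cell, was the brightest at 12.05, 11.93, 12.39 and 12.42. Cd24a, a small glycoprotein of immature blood cells and red cells, read 12.83, 12.83, 11.11 and 11.12. Csf2rb, the shared beta chain of the receptors for GM-CSF, IL-3 and IL-5, read 11.15, 11.46, 12.17 and 12.17, and the near-identical Csf2rb2, the IL-3-specific copy, 9.64, 10.60, 11.61 and 11.57. Because the 2 copies are alike, their probe sets may share transcripts. Ms4a2, the beta chain of the high-affinity IgE receptor, was the fifth with 11.28 to 11.50. The transferrin receptor Tfrc, which brings iron into cells, read 11.84, 12.26, 9.80 and 9.85. Rhag, an ammonia channel of the red cell membrane, read 11.57, 11.57, 9.37 and 9.55. The adhesion receptor Adgre5 (CD97) hardly moved, between 11.14 and 11.21, as did the scavenger-type receptor Lrp10 (10.26 to 10.38). The remaining members of the 20 brightest were Ly6e, Tspan13, Cd164, Slc3a2, Cd44, Tspan33, Atp1b3, Slc7a5, Bsg, Spn and Cd74, each between 9.17 and 12.27 on every array. They include the 2 chains of an amino acid transporter (Slc3a2 and Slc7a5) and 2 leukocyte sialoglycoproteins (Spn, known as CD43, and Cd164).

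A total of 43 of the 248 surface genes above background varied by at least 4-fold, beside 595 of all 10077 (5.9%). Of the 43, 31 were highest on arrays C and D, beside 348 of the 595. Some of the 43, such as Ptger3, Cd69 and Hrh4 below, passed the background level only through those arrays. Ptger3, a receptor for prostaglandin E2, had the widest range of any gene above background, with 2.91, 2.87, 10.15 and 10.13. Its other probe set ranged over only 0.59, so the size rests on 1 probe set. Itga6, an integrin chain that binds laminin, read 5.12, 4.04, 9.59 and 9.70, and its other probe set moved as much (5.72). Kit, the stem cell factor receptor of stem and mast cells, read 7.46, 7.74, 10.36 and 10.35, with ranges of 2.83 and 2.90 for its probe sets. Further receptors, chosen after their values were seen, moved the same way. These were the activation marker Cd69 (3.42, 3.37, 8.80 and 8.79), the UDP-glucose receptor P2ry14 (6.07, 5.22, 9.50 and 9.59) and the histamine receptor Hrh4 (4.30, 4.13, 6.87 and 7.08). Of the 12 genes that were highest on arrays A and B, several carry red cell functions. Slc4a1, Tfrc, Rhag and, chosen after their values were seen, the blood group proteins Kel and Rhd, the iron sensor Tfr2 and the glucose transporter Slc2a1 were among them.

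**Figure D2:**
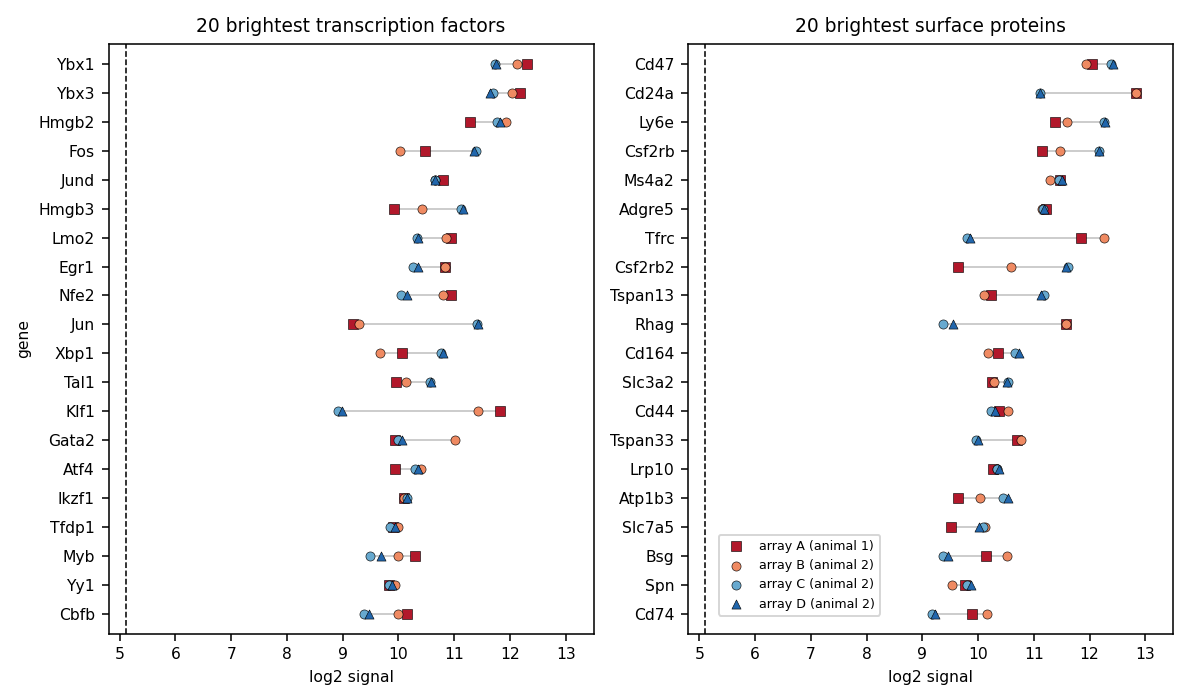
Log2 signal of the 20 brightest transcription factors (left) and surface proteins (right) on each of the 4 arrays, with a grey bar from the lowest to the highest array and a dashed line at the background level of 5.11. Most bars are short, while Klf1, Jun, Tfrc, Rhag and Cd24a separate arrays A and B from arrays C and D.

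Secreted proteins were dimmer, with 54 of 142 measured cytokines, chemokines, growth factors and related proteins above background. Lgals9, a galectin that binds sugar chains on immune cells, was the brightest at 12.21, 12.48, 11.40 and 11.51. The growth factor Hdgf (10.68 to 11.56), the cytokine Mif (9.75 to 11.22), Tgfb1 (9.48 to 10.49), Gmfb (9.66 to 9.82), progranulin Grn (8.95 to 9.67) and the semaphorin Sema4d (8.88 to 9.76) were present on every array. Lgals3, a galectin of macrophages and mast cells, read 9.53, 9.03, 10.97 and 10.99. A total of 9 secreted genes varied by at least 4-fold, beside 5.9% of all genes above background. Some of the 9 passed the background level only through the arrays on which they are high. Il6, the acute-phase cytokine, read 2.79, 2.79, 10.06 and 9.96, and so went from the level of the chemosensory receptors, whose median was 3.42, to the brightness of Mif. Il1b, the inflammatory cytokine of myeloid cells, went the other way at 8.43, 8.48, 5.50 and 5.61. So did Fgf13, an intracellular relative of the fibroblast growth factors, at 8.83, 8.64, 2.56 and 2.59.

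Lineage gene lists were then described by the median of their measured members on each array, beside the median of all genes, which lay between 5.41 and 5.52. Counts of varying and steady members below can be read beside 5.9% and 19.1% of all genes above background. Of all 595 varying genes, 348 were highest on arrays C and D and 247 on arrays A and B. Erythroid genes lay far above that level on arrays A and B. Primary granule genes and mast cell and basophil genes lay far above it on arrays C and D, and secondary granule genes lay above it on all 4. B cell, T cell, NK cell and stromal lists lay below it throughout.

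**Figure D3:**
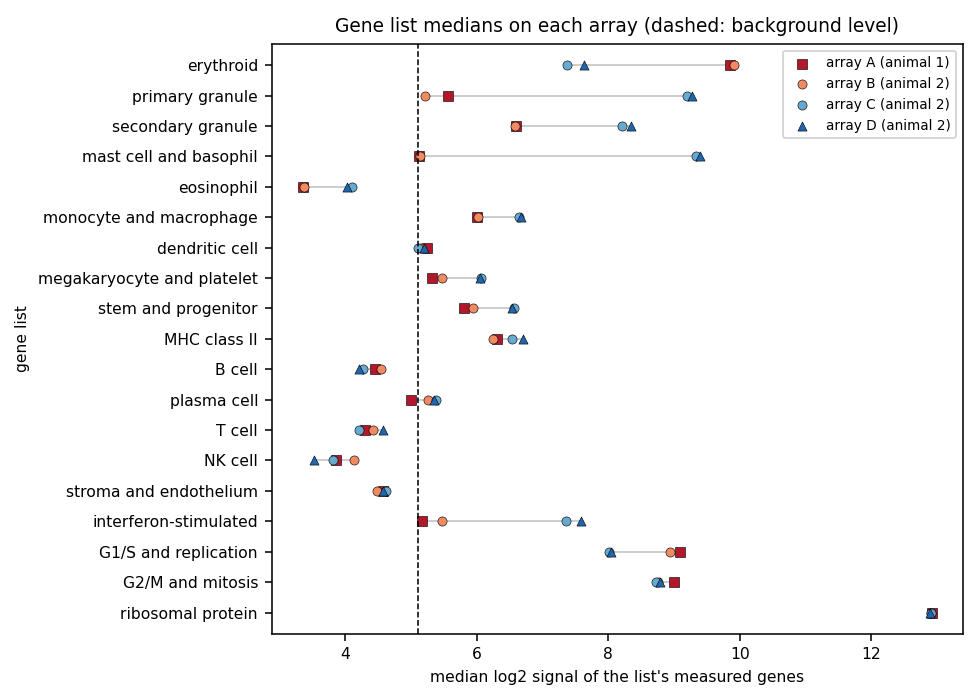
Median log2 signal over the measured genes of each list (rows) on each of the 4 arrays, with a grey bar from the lowest to the highest array and a dashed line at the background level of 5.11. The erythroid, primary granule, and mast cell and basophil lists split the arrays into the same 2 pairs, while the B cell, T cell, NK cell and stromal medians stayed below the dashed line on all 4.

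Erythroid genes had list medians of 9.85, 9.92, 7.37 and 7.64 over 29 measured genes. A total of 24 lay above background and 15 varied by at least 4-fold, beside 5.9% of all genes above background. All 15 were higher on arrays A and B. Among them Aqp1 (6.71, 6.16, 3.83 and 3.99), named after its values were seen, passed the background level only through arrays A and B. Slc4a1, the anion exchanger band 3 of the red cell membrane, read 11.38, 11.74, 6.99 and 6.93, a 28.1-fold range. Its rank among all genes was 168, 105, 6008 and 6272. Membrane skeleton genes of the list moved with it, such as Ank1 (11.01, 10.49, 7.0 and 7.36) and Epb42 (8.30, 8.24, 4.30 and 5.28). Heme and iron genes did too, with Alas2, the first enzyme of red cell heme synthesis, at 11.05, 11.44, 8.11 and 8.14 and the mitochondrial iron importer Slc25a37 at 10.49, 10.98, 7.09 and 7.10. These 4 genes were chosen after their values were seen. Carbonic anhydrase 1 (Car1) read 12.54, 12.57, 10.01 and 9.98. The beta globin gene Hbb-b2 read 10.15, 9.92, 6.08 and 6.01, but its other probe set ranged over 0.87, and globin genes have near-identical copies that probe sets may not separate. Alpha globins Hba-a1 and Hba-a2 were not above background by the probe sets that name 1 of them.

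Other erythroid genes stayed bright on all 4 arrays. Gata1, the GATA factor of red cells, megakaryocytes, mast cells and eosinophils, read 9.89, 9.87, 9.41 and 9.41. Ermap, an erythroid membrane protein, read 11.67, 11.66, 10.56 and 10.61. Even on arrays C and D, Klf1, Rhag and Car1 lay between 8.92 and 10.01, far above background, and 22 and 23 of the 29 erythroid genes exceeded the background level there, against 25 and 24 on the others.

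Mast cell and basophil genes did not all behave alike. Among the 17 measured genes, 13 lay above background, 8 varied by at least 4-fold and 2 were steady. Over all genes above background, 5.9% varied and 19.1% were steady, so the steady count is not above that share. The steady pair was Ms4a2 (11.47, 11.28, 11.45 and 11.50) and histidine decarboxylase (Hdc), the enzyme that makes histamine, at 10.97, 10.76, 10.80 and 10.88. The other probe set of Hdc ranged over 0.45. Ms4a2 and Hdc were bright on every array, as was Gata2. All 8 variable genes were highest on arrays C and D, and several, such as Mitf and Slc18a2, passed the background level only through those arrays. Fcer1a, the chain of the IgE receptor that holds IgE, read 5.29, 5.21, 12.39 and 12.47, a range of 7.26 log2 units. It ranked 9345 and 9698 among all genes on the first pair of arrays and 50 and 45 on the second. The mast cell carboxypeptidase Cpa3 read 7.11, 6.90, 11.84 and 11.91. Slc18a2, the transporter that loads histamine and serotonin into granules, read 4.25, 4.86, 10.43 and 10.48, and Tph1, the first enzyme of serotonin synthesis in mast cells and gut, which is not in the list, 5.54, 5.19, 12.18 and 12.31. A pair of mast cell proteases, chosen after their values were seen, moved alike, with Mcpt1 at 4.69, 4.70, 10.13 and 10.12 and Cma1 at 4.91, 5.13, 9.34 and 9.39.

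Not every mast cell gene took part. The connective tissue protease Mcpt4 (4.23 to 4.49) and the receptor Mrgprb1 (2.04 to 2.21) were not above background on any array. The tryptase Tpsab1 was slightly lower on arrays C and D (7.20, 7.48, 6.51 and 6.45), and the basophil protease Mcpt8 read 4.25, 4.23, 5.78 and 5.78. These 4 were named after their values were seen. The gamma chain that completes the IgE receptor, Fcer1g, also named afterwards, was present throughout at 8.11, 7.71, 9.0 and 9.05.

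The promoters of 3 of these genes are shown because they differ in behavior within one receptor and one cell type, beside those of a primary granule gene and an erythroid gene described in the neighboring paragraphs. Each stretch is the 120 bases before the annotated start in RefSeq on GRCm38.p6, read 5′ to 3′ on the gene's strand. Capitals mark the RUNX core motif TGTGGT and the GATA motif AGATAA, searched on both strands, so that the reverse complements ACCACA and TTATCT are capitals too.
Fcer1a, variable, chr1:173227230-173227349, minus strand: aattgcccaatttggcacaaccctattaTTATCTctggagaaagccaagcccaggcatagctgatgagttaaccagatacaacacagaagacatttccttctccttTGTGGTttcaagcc
Cpa3, variable, chr3:20242182-20242301, minus strand: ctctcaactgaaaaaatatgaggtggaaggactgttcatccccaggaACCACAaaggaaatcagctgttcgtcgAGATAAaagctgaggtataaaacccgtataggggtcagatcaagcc
Ms4a2, steady, chr19:11623720-11623839, minus strand: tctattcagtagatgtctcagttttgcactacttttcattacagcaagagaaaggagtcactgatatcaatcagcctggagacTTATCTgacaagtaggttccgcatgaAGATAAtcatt
Ctsg, variable, chr14:56102575-56102694, minus strand: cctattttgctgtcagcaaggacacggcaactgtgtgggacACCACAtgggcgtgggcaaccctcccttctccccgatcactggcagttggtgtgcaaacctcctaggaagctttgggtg
Alas2, variable, chrX:150547297-150547416, plus strand: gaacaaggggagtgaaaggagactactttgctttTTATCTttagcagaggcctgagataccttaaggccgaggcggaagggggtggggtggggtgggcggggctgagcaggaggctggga
In these stretches Fcer1a and Cpa3 hold 1 RUNX core and 1 GATA motif each, Ms4a2 holds 2 GATA motifs and no RUNX core, Ctsg holds 1 RUNX core, and Alas2 holds 1 GATA motif. The motifs do not overlap each other there. A match is a description of letters, not of binding. These few genes do not show whether motifs go with behavior over the arrays.

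Over windows from 250 bases before to 50 after the start, the RUNX core was found in 16.8% of all 32851 promoters of the table and the GATA motif in 11.2%. Of 24 mast cell and basophil promoters (18 genes), 37.5% held the RUNX core and 33.3% the GATA motif. Beside Fcer1a and Cpa3, the variable genes Mitf, Il13, Cma1 and Mcpt1 held the RUNX core. The variable Slc18a2 held only the GATA motif. For Kit, the remaining variable gene, no match to either motif was recorded. Mcpt4 and Mcpt8, not above background by their mean, held the RUNX core too. Of 24 erythroid promoters (23 genes), 25% held the RUNX core and 33.3% the GATA motif. Of 18 primary granule promoters (15 genes), 44.4% held the RUNX core and 0 the GATA motif, and of 27 promoters of known RUNX1 and CBF targets (22 genes), 14.8% and 11.1%. Alternative starts of a gene share bases, the lists are small, and these shares were not tested.

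Primary granule genes had list medians of 5.56, 5.21, 9.20 and 9.27. The list holds enzymes that promyelocytes store in their first granules, and also other genes, such as Plac8 and calreticulin. All 14 measured genes lay above background by their mean. Of these, 9 varied by at least 4-fold, beside 5.9% of all genes above background, and all 9 were highest on arrays C and D. Those 9 include genes that passed the background level only through the arrays on which they are high. Myeloperoxidase (Mpo), which makes the bactericidal hypochlorous acid, read 5.57, 4.86, 11.17 and 11.25. Cathepsin G (Ctsg), a serine protease whose promoter is printed above, read 3.99, 4.54, 10.48 and 10.48. Elastase (Elane) and proteinase 3 (Prtn3), the companion proteases, were named after their values were seen and read 5.12, 5.98, 9.40 and 9.49, and 5.55, 4.77, 10.39 and 10.38. Plac8, a small protein of immature myeloid cells, read 7.58, 7.38, 10.39 and 10.29. Serglycin, described above, and the chaperone calreticulin (Calr, between 11.22 and 11.66), both active in many cells, were bright throughout.

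Secondary granule and neutrophil genes had medians of 6.60, 6.58, 8.21 and 8.34 over 23 measured genes, of which 22 lay above background. A total of 10 varied by at least 4-fold, beside 5.9% of all genes above background. Of the 10, 9 were highest on arrays C and D and 1, Il1b, ran in the opposite direction. Ngp, a granule protein of mouse neutrophils, read 7.77, 7.46, 11.24 and 11.23. Lipocalin 2 (Lcn2), which captures bacterial iron carriers, read 7.38, 7.24, 11.13 and 11.14. The calcium-binding pair S100a8 (10.25, 10.50, 11.78 and 11.76) and S100a9 (9.68, 9.71, 11.62 and 11.70) was bright everywhere and brighter on arrays C and D. The neutrophil collagenase Mmp8 was dim and steady (6.58 to 6.62), as was Csf3r, the G-CSF receptor (7.21 to 7.50), named after its values were seen.

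**Figure D4:**
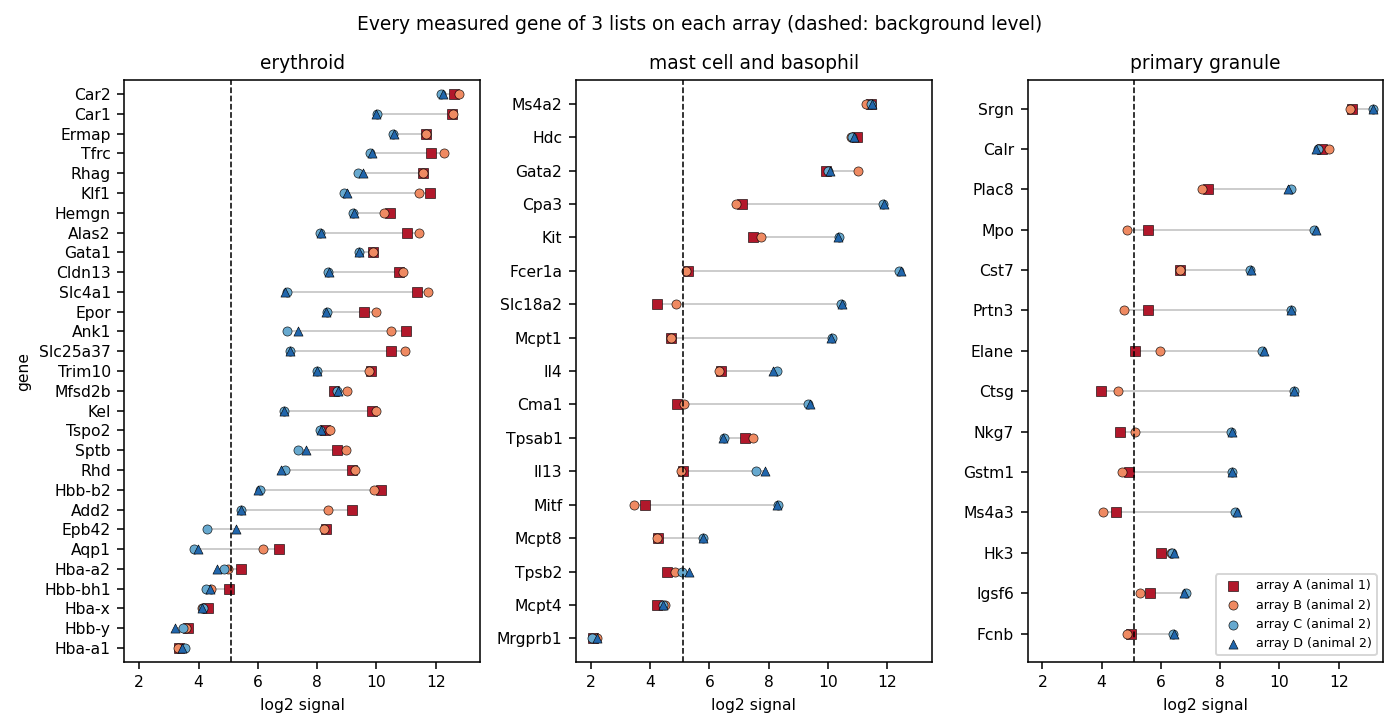
Log2 signal of every measured gene of the erythroid (29), mast cell and basophil (17) and primary granule (14) lists on each of the 4 arrays, with grey bars from the lowest to the highest array and a dashed line at the background level of 5.11. Ms4a2 and Hdc lie together on all arrays at the top of the middle panel, while Fcer1a, Mpo, Ctsg and Slc4a1 split into 2 tight pairs of arrays.

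Monocyte and macrophage genes differed less, with medians of 6.0, 6.01, 6.63 and 6.68 and 2 of 28 measured genes varying (23 above background). Lysozymes Lyz1 (11.92, 11.55, 10.47 and 10.48) and Lyz2 (10.91, 10.97, 9.89 and 9.81), near-identical copies that probe sets may not separate, were the brightest. Csf1r, the M-CSF receptor, read 9.69, 9.04, 9.31 and 9.47. F13a1, the coagulation factor XIII chain of monocytes and platelets, read 8.28, 7.89, 9.97 and 10.04. Among red pulp and tissue macrophage genes named after their values were seen, Cd5l lay between 7.69 and 8.26 and the transcription factor Spic between 5.16 and 5.84, whereas Timd4 (3.15 to 3.61) was not above background. Dendritic cell genes lay near background, with medians of 5.10 to 5.24, 0 of 14 varying and Bst2 the brightest at 6.61 to 6.88.

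Eosinophil genes were dim. Of 7 measured genes, 1 lay above background by its mean. That gene was Siglecf, a sialic acid receptor of eosinophils, at 3.39, 2.92, 9.68 and 9.73. The granule proteins that define eosinophils were near or below background, with Epx, named after its values were seen, between 2.97 and 3.31, Prg3 between 3.36 and 4.11, and Prg2, the major basic protein, at 3.36, 3.62, 5.46 and 5.42.

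Megakaryocyte and platelet genes had medians of 5.32, 5.46, 6.06 and 6.05 over 21 measured genes, with 15 above background and 4 varying, all 4 highest on arrays C and D. The share of varying genes among all above background was 5.9%. Of the 4, Fli1, described above, and Selp passed the background level only through arrays C and D. Selp, named after its values were seen, read 4.95, 4.36, 6.52 and 6.67. Plek, a protein kinase C substrate of platelets and leukocytes, read 10.13, 10.44, 11.24 and 11.33. The thrombin receptor F2r read 7.88, 7.22, 10.40 and 10.44. Gp5, a subunit of the von Willebrand factor receptor, was high throughout (9.19 to 9.92), as was the repressor Gfi1b (9.07 to 9.97). In contrast, the platelet chemokine Ppbp (3.77 to 4.40) and Vwf itself (3.34 to 3.90), both named after their values were seen, were not above background.

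Stem and progenitor genes had medians of 5.81, 5.93, 6.57 and 6.54 over 34 measured genes, with 24 above background. Ly6e (11.38, 11.60, 12.26 and 12.27), Lmo2, Tal1 and Gata2 were the brightest. A total of 5 varied by at least 4-fold, all 5 highest on arrays C and D, and these were Hlf, Kit, Runx1 and, named after their values were seen, the signaling receptors Cd48 (6.64, 6.52, 9.34 and 9.41) and Slamf1 (4.75, 5.20, 6.78 and 6.57). The share of varying genes among all above background was 5.9%, and Hlf passed the background level only through arrays C and D. Also named afterwards, Cd34 (3.47, 3.32, 5.28 and 5.19), Meis1 (4.05 to 4.24), Mecom (3.28 to 3.79) and Procr (3.65 to 3.90) were not above background by their mean.

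Lymphoid and stromal genes were at low levels. The medians of the B cell list lay between 4.21 and 4.54, of the T cell list between 4.21 and 4.58 and of the NK cell list between 3.53 and 4.13, all below background, with 5 of 23, 6 of 23 and 3 of 16 genes above it. Of the defining markers, named after their values were seen, the B cell genes Cd79a (4.38 to 5.24), Ms4a1 (4.12 to 4.96) and Pax5 (4.43 to 4.61) and the NK gene Ncr1 (3.81 to 4.16) lay near or below background. Cd79b was above it by its mean (5.27, 4.63, 5.84 and 6.10). Of the T cell genes, Cd3d lay between 4.87 and 5.26, while Cd3e (5.64 to 5.91), Cd4 (5.17 to 5.62) and Cd8a (5.21 to 5.55) lay somewhat above background on all arrays. Ighm, the immunoglobulin heavy chain, read 8.21, 7.57, 10.23 and 10.30, but its 11 probe sets ranged from 0.21 to 2.73 in spread. The other varying gene of the B cell list, the BAFF receptor Tnfrsf13c, ran the opposite way at 7.56, 6.44, 5.02 and 4.94.

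Some genes of the T and NK lists that other cells use too were brighter. Lat, the adaptor of T cell and IgE receptor signaling, read 6.20, 6.40, 11.32 and 11.25. Granzyme B (Gzmb), a protease of killer and mast cells, read 4.68, 4.57, 9.10 and 9.27, and Nkg7, a granule membrane protein that also stands in the primary granule list, 4.63, 5.12, 8.35 and 8.40. These 3 were highest on arrays C and D, whereas Zap70, a kinase of the T cell receptor, read 7.13, 7.64, 7.45 and 7.40 and the chemokine Ccl5 6.78, 6.45, 5.89 and 6.02. Plasma cell genes had medians of 4.99 to 5.38, and their brightest members, the secretory genes Sec11c (mean 11.22, range 0.45) and Xbp1, are not restricted to plasma cells. The MHC class II list, with medians of 6.25 to 6.70, had Cd74 (9.90, 10.16, 9.17 and 9.22) and H2-Aa (9.91, 9.41, 7.97 and 8.09) as its brightest genes.

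The stroma and endothelium list had medians of 4.47 to 4.62, with 12 of 32 genes above background. The collagen Col1a1 (3.80 to 4.04) and the endothelial cadherin Cdh5 (3.69 to 3.99), named after their values were seen, were dim on all arrays. The brightest gene of the list was fibronectin (Fn1), a matrix protein also made by macrophages, at 8.92, 9.01, 8.21 and 8.28. Decorin (Dcn), a matrix proteoglycan, varied, at 8.94, 8.47, 4.79 and 4.93, though its other probe set ranged over 0.47. Postn, a matrix protein, ran the other way at 3.67, 4.28, 6.58 and 6.74.

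Cell division genes were bright on every array. All 28 genes of DNA replication and all 28 of mitosis lay above background, and 0 of either list varied by 4-fold. Replication genes had medians of 9.09, 8.93, 8.01 and 8.04. Pcna, the sliding clamp of DNA polymerase, read 11.98, 12.20, 11.49 and 11.57, thymidine kinase Tk1 9.25, 9.59, 7.99 and 8.03, and the origin licensing factor Cdc6 9.11, 8.62, 7.66 and 7.62. Mitosis genes had medians of 8.99, 8.76, 8.72 and 8.79, with the proliferation antigen Mki67 at 11.61, 11.19, 10.65 and 10.78 and the cyclin Ccnb2 between 9.78 and 9.96. A total of 9 of 28 mitosis genes and 2 of 28 replication genes were steady, beside 19.1% of all genes above background. The ribosomal protein list was the steadiest, with medians of 12.88 to 12.92 and 31 of its 41 genes above background steady, among them Rps26 (12.87 to 12.90) and Rpl10a (12.88 to 12.93). Rpl37 was an exception at 9.05, 9.73, 10.37 and 10.25.

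Interferon-stimulated genes separated the arrays as the myeloid lists did, with medians of 5.16, 5.47, 7.35 and 7.59 over 26 genes. Of 19 genes above background, 9 varied by at least 4-fold, beside 5.9% of all genes above background. Of the 9, 8 were highest on arrays C and D. Several of these, such as Rtp4 and Xaf1, passed the background level only through those arrays. Rtp4, an interferon-induced chaperone of receptors, read 3.72, 3.92, 9.10 and 9.18, and Xaf1, a promoter of cell death, 4.84, 4.87, 7.98 and 8.53, although each has another probe set that ranged over 0.42 and 0.19. Named after their values were seen, the antiviral synthetase Oas2 (5.28, 5.26, 7.88 and 8.11), the deubiquitinase-like Usp18 (4.21, 4.29, 7.53 and 7.61) and the regulator Irf7 (5.72, 5.59, 7.82 and 8.19) moved alike. The list did not move as a whole. Ifit2 ran the other way (7.66, 7.13, 4.70 and 4.80), Isg20 did so to a smaller extent (10.05, 9.84, 8.91 and 8.88), and Ifit1 (3.19 to 3.78), Mx1 (3.37 to 4.26) and Cxcl10 (4.57 to 4.87), also named afterwards apart from Isg20, were not above background.

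Immediate-early genes were bright, with medians of 7.94 to 8.29 and 28 of 30 above background. A total of 4 varied, all highest on arrays C and D, beside 5.9% of all genes above background. Of these, the RNA-destabilizing protein Zfp36 read 8.0, 8.49, 10.70 and 10.70 and the phosphatase Dusp2 5.76, 5.90, 8.20 and 8.26, beside Jun and, named after its values were seen, Fosb (6.32, 6.60, 8.72 and 8.73). A total of 9 were steady, Jund and Myc among them, beside 19.1% of all genes above background. Dusp1, another phosphatase of MAP kinases, read 10.52, 10.50, 11.17 and 11.20.

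The genes of the fusion and its partners were read next. Cbfb read 10.16, 9.99, 9.39 and 9.47, and the array cannot tell whether its signal came from the normal allele or the fusion. Myh11, the smooth muscle myosin gene, was not above background (3.60, 3.82, 3.48 and 3.42). Whether its probes match the myosin part of the engineered allele is not given in the sources used here, so this signal neither checks nor questions the genotype. The non-muscle myosin Myh9 was bright at 10.23, 10.01, 10.89 and 10.93. Runx1 read 6.79, 6.41, 9.11 and 9.15, a 6.71-fold range, and 5 of its 6 probe sets ranged by 2.20 to 2.75 while the dimmest ranged over 0.17. Its relative Runx3 was dim (5.51 to 5.81, named after its values were seen). Of the ETO family of corepressors, Cbfa2t3 was bright and steady (8.96 to 9.12), and Runx1t1, known as ETO, read 3.47, 2.68, 8.34 and 8.33. The other 5 probe sets of Runx1t1 ranged by 0.24 to 5.46, 3 of them by more than 4. Histone deacetylase Hdac1, a corepressor enzyme, lay between 9.31 and 10.14.

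Known targets of RUNX1 and core-binding factor had medians of 6.61, 6.60, 8.41 and 8.41 over 27 measured genes, of which 23 lay above background. These medians do not describe a common rise. The median range of the 23 was 0.87, and members moved both ways, with Nfe2, Myb and Gata1 lower on arrays C and D. A total of 4 varied by at least 4-fold. Mpo, Elane and Ctsg were highest on arrays C and D, as Runx1 was, while Klf1 was lowest there. These 3 granule genes also stand in the primary granule list and add no separate evidence. Further targets above background that ranged over more than 1 log2 unit were, named after their values were seen, Itga2b (6.99, 7.13, 8.74 and 8.91), Id2 (7.78, 7.38, 8.80 and 8.80) and Cdkn1a (9.54, 9.51, 8.41 and 8.41), and Gfi1, not above background by its mean, ranged over 2.20. Ranges under 1 log2 unit were found for Csf1r, Gata1 and, also named afterwards, Spi1, the myeloid ETS factor PU.1 (8.23 to 8.70), and Cebpa (5.55 to 6.50). The T cell targets Cd4 (5.17 to 5.62) and Cd3e (5.64 to 5.91) were dim.

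Of 43 measured kinases and oncogenes of myeloid leukemia, 38 lay above background and 2 varied, Kit and Bcl2, a share near the 5.9% of all genes above background. The survival gene Bcl2 read 4.82, 4.77, 8.84 and 8.95, with ranges of 2.21 to 4.19 over its 5 probe sets. Bcl2 passed the background level only through arrays C and D. Its relative Mcl1 was bright on all arrays at 10.59, 10.56, 11.16 and 11.15. Nucleophosmin Npm1 (mean 11.68, range 0.64), the cyclin Ccnd2 (10.71 to 11.15), the kinase Pim1 (10.08 to 10.50) and Myc were high throughout. Flt3, a receptor often mutated in myeloid leukemia, was dim and steady (5.90 to 6.15), and the tumor suppressor locus Cdkn2a (3.40 to 3.71) and the oncogene Plag1 (2.74 to 3.20), both named after their values were seen, were not above background.

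Over all genes above background, the range over the 4 arrays was at least 2 log2 units for 595, the 5.9% given above. Of these, 247 had their highest pair of values on arrays A and B, and 348 on arrays C and D. In the 4 other pairings the number was 0. Some of the 595, such as Fli1 and Fgf13, passed the background level only through the pair of arrays on which they were high. Leaving out 1 array at a time left 498 to 564 varying genes, and leaving out either pair, A and B or C and D, left 0. Varying genes just inside the limit were Tceal8 (2.004) and Haspin (2.006), and just outside were Mob3c and Adcy6 (both 1.999). Within neither pair did any of the 10077 genes differ by as much as 2 log2 units. The control measures, in which array A stood apart from all 3 of animal 2, ran across this division, and their part in it was not tested.

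The widest ranges among all genes, beyond those already described, belonged to genes of varied function. Perp, a membrane protein of p53-driven cell death and cell junctions, read 4.46, 3.97, 11.19 and 11.22. Enah, an actin filament regulator, read 3.15, 3.16, 10.25 and 10.10, with ranges from 1.38 to 7.10 over 6 probe sets. Rab38, a small GTPase of lysosome-related granules, read 4.07, 3.96, 9.98 and 9.90, and Mrvi1, a calcium signaling protein, 4.64, 4.10, 10.31 and 10.37. In the opposite direction, Gadd45a, a stress-induced growth arrest gene, read 9.73, 9.46, 3.26 and 3.85. Slc15a2, a peptide transporter, read 9.31, 8.98, 3.58 and 4.27, though 1 of its 3 probe sets ranged over only 0.18. Proteins made mainly in other organs were on that side too, with albumin (Alb), the liver plasma protein, at 9.75, 9.27, 4.34 and 4.08 and proglucagon (Gcg), the pancreatic and gut hormone precursor, at 8.60, 8.57, 2.70 and 2.49.

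**Figure D5:**
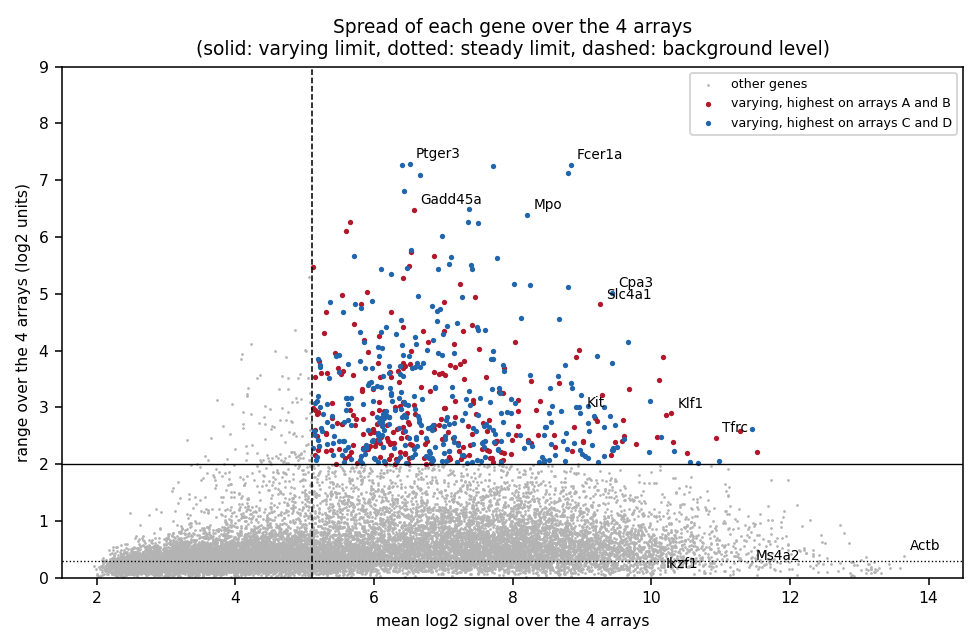
Range over the 4 arrays in log2 units against the mean log2 signal for every gene, with solid and dotted lines at the limits for varying (2) and steady (0.3) and a dashed line at the background level of 5.11. The 247 red genes were highest on arrays A and B and the 348 blue genes on arrays C and D. Varying genes lie at means up to 11.52 (Prdx2, a red cell peroxidase named after its values were seen), and the brightest genes, such as Actb, vary little.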

How the data were processed

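Biotin-labelled RNA was read on Affymetrix GeneChip 430 arrays, per the labels. The authors deposited a table of 45101 probe sets in log2 units. RMA is named, with no version, in the submitters' processing notes, and base 2 was inferred from the size of the values. RMA compresses differences between dim signals. Another 4 columns, those of the truncated genotype, were not used here.

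In the platform annotation 34945 probe sets had 1 gene symbol and were used, 932 had several, 9160 had none and 64 were controls. Of 18194 gene identifiers, 18032 were found in the RefSeq table. Each gene took the probe set with the highest mean. Probe sets ending in s_at or x_at, such as those of Hdc, Hbb-b2, Ighm, Lyz1, F2r and Runx1t1, can match related sequences. Python 3.11.15, pandas 2.3.3 and numpy 2.4.6 were used. No groups were compared or tested, since the question is a description of 1 group, and only Dixon's criterion for a value that stands apart was applied, with a critical value of 0.829. The counting of varying and steady genes was also run on simulated data whose noise came from arrays C and D, the closest pair. It therefore does not show how the counts behave at the wider spread between arrays A and B.

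The 28 gene lists (1512 symbols, 1332 measured) and the limits were chosen with earlier results of these data known. The rule for named genes took Cbfb, Myh11 and Runx1, the 25 brightest genes, the 20 brightest factors and surface genes and the 10 brightest secreted genes. It also took 4 bright and 2 wide-ranging members of each lineage and program list, and the 20 widest and 15 narrowest ranges. Alternatives were other probe set choices, array omissions, scaling, limits and background levels.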

Additional observations from a re-analysis of the deposited data

Results flagged for a closer look

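A set of 4 values was examined for an array that stood apart, by the gap to its nearest neighbor relative to the whole range, for 232 sets (lists, control measures and named genes), and 11 had such an array. For 4 independent values from a single population, chance alone would give about 1 in 20. These arrays were not independent in this sense, since A paired with B and C with D. Some of the named genes were also chosen for a wide range. The 11 of 232 therefore cannot be judged against that rate, and no conclusion about chance is drawn from it. For 5 control measures the array that stood apart was array A. There the 18S probe sets had a median of 8.08, the poly-A spike-ins 8.14 and the hybridisation spike-ins 9.10, the last against 9.61 to 9.65 on the other arrays. The difference between the 3′ and 5′ probe sets was 0.81 for Actb, against 0.33 to 0.38 elsewhere, and -0.19 for Gapdh, against 0.02 to 0.05. The same array stood apart for Rpl41 at 13.32, Rpl19 at 12.82, Rpl35 at 13.09, Jund at 10.79 and the dim Alox15 at 3.84. On array B it was Gata2 at 11.01, about 1 log2 unit above the others. This rests on its brightest probe set, since on the other array B lay nearer to array A (9.79, 10.29, 9.30 and 9.38).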

How the results depend on the processing

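No paired analysis was possible because no groups were compared. Of 230 list medians recomputed under the alternatives, 201 moved by less than the spread over arrays, and of 276 counts of members above background, 263 stayed within 1.5 times. That spread was the list's own SD over the 4 array medians. It was 2.45 for mast cell and basophil, 2.23 for primary granule and 1.38 for erythroid genes. These lists depend most on the arrays taken, so being counted as unmoved does not show that they are robust. Leaving out each array in turn gave 498 to 564 varying genes, 2251 to 3880 steady genes and a T cell median of 4.22 to 4.45. Without arrays A and B together, 0 genes varied and 9589 were steady. Without arrays C and D, 0 varied and 6020 were steady. Fewer arrays narrow any range by construction. Limits of 1 and 0.2 gave 2317 varying and 809 steady genes, limits of 3 and 0.5 gave 239 and 4303, and no background filter gave 5529 steady genes.

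With the median over a gene's probe sets, 13 of the 20 brightest factors were shared. List medians were then 5.05 for dendritic cell, 5.57 for stem, 4.20 for B cell, 3.73 for T cell, 5.51 for MHC class II, 4.21 for stroma, 7.77 for mitosis, 12.47 for ribosomal, 7.59 for immediate-early, 6.09 for core-binding factor and 6.61 for oncogene lists. Without s_at and x_at probe sets they were 5.15 for dendritic cell, 4.33 for B cell, 4.56 for stroma, 12.63 for ribosomal and 7.79 for oncogene lists. Without arrays A and B they were 6.67 for monocyte, 5.17 for dendritic cell, 6.58 for stem, 4.23 for B cell, 3.67 for NK cell, 12.90 for ribosomal, 7.71 for core-binding factor and 7.82 for oncogene lists. Without arrays C and D they were 3.15 for eosinophil, 5.32 for megakaryocyte, 4.42 for stroma and 8.84 for mitosis lists. The cause of the probe set differences was not tested.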
